A study of Mus musculus with 12 samples.

Results

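Immediate-early genes are a set of 10 genes here: Fos, Fosl1, Fosl2, Jun, Junb, Jund, Egr1, Ier2, Ier3 and Myc. The set was chosen by symbol and not by a rule on values, though with earlier results of these data known. These genes are 10 of the 16728 measured, and all 10 were among the 12275 genes that passed the filter on low counts. RNA was sequenced from primary hepatocytes of C57BL/6 mouse liver, which were either wild type (WT) or lacked the bile acid receptor Fxr (Fxr-/-, here KO). Both kinds of cell were kept in DMEM with serum and received AC or FAC at 100 µM for 24 h, which gave 4 groups of 3 libraries: WT AC (1 to 3), WT FAC (4 to 6), KO AC (1 to 3) and KO FAC (4 to 6). AC and FAC are given only as abbreviations in the labels, and the series title speaks of iron overload. The age of the mice and the nature of the Fxr allele are not given in the sources used here.

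Immediate-early genes are transcribed within minutes of a growth factor, cytokine or stress signal, without new protein synthesis, through factors that already sit on their promoters. Fos and Jun proteins pair through leucine zippers to form AP-1, a transcription factor whose DNA binding and activity depend on which family members are present. In liver they are best known for their burst after partial hepatectomy, and they also come up when hepatocytes are isolated and plated.

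Whether the libraries of a group came from separate animals or cultures is not stated, so p-values measure only the spread between these samples, which may be technical. Genotype cannot be told apart from the source and culture of the cells, and in bulk RNA fewer cells of a type and less RNA per cell cannot be told apart. Library totals ranged from 16464494 to 18335700 estimated reads. Nr1h4, the gene for Fxr, read 13, 15.6 and 13.1 CPM (counts scaled to the size of the library) in WT AC, 7, 6.95 and 7.69 in WT FAC, 9.35, 6.97 and 7.45 in KO AC, and 3.54, 4.45 and 4.89 in KO FAC. It was lower in the KO libraries than in the WT libraries of the same treatment, but not absent. A value for the whole gene does not show whether the deleted part was read. Summed levels of 11 hepatocyte markers were 20081 to 20762 TPM (a level scaled by transcript length and library) in WT AC and 20340 to 21152 in KO AC, and were higher under FAC, at 25251 to 26838 in WT and 23420 to 25594 in KO. Single markers differed between genotypes more than their sums: 8 of the 11 were called higher and 2 lower in KO under AC (median log2 change 1.24), and 8 higher and 1 lower under FAC (median 1.25). Of all tested genes, 42.9% were called under AC and 49.5% under FAC. Arg1, a urea cycle enzyme, was higher in KO under AC by 4.59 ± 0.15 (edgeR adjusted p = 4.54e-11), from a low mean of 1.69 CPM in WT AC to 40.8 in KO AC. Asgr1, an asialoglycoprotein receptor subunit, was higher by 1.95 ± 0.15 (edgeR adjusted p = 5.9e-07). Both were named for the size of their change. Apob went the other way, at means of 970 ± 318 CPM (SD) in WT AC and 488 ± 60 in KO AC.

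Promoter sequence is shown for Fos, Jun, Junb and Ier3, members whose RNA was higher in KO than in WT under AC and whose promoters were in the RefSeq table used here. Jund also meets this rule, but is not printed because its start site in RefSeq (70697739) lies upstream of that in GENCODE (70698949). Its RefSeq window held none of the motifs searched. Each run is the 150 bases before the RefSeq start site in GRCm38.p6, written 5′ to 3′ on the gene's strand, with matches to searched motifs in capitals. The windows are chr12:85473740-85473889 (plus strand), chr4:95052223-95052372 (minus strand), chr8:84978749-84978898 (minus strand) and chr17:35821563-35821712 (plus strand).
Fos: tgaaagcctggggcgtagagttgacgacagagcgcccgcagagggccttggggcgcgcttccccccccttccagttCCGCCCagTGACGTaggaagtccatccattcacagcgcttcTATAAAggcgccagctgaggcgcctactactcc
Jun: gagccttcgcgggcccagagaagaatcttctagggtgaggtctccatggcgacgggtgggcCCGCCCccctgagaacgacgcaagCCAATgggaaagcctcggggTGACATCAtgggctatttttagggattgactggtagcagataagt
Junb: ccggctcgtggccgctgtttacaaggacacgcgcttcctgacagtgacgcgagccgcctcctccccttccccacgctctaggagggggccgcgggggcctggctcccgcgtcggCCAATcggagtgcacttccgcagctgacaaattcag
Ier3: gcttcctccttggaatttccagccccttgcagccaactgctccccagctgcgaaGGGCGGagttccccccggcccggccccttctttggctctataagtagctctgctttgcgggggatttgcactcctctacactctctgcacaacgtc

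Searches covered both strands of the windows from 250 bases before to 50 bases after the start site. Positions count from the RefSeq start site, with the first transcribed base as 1. Fos held a GC box (GGGCGG, on the other strand) at -74 to -69, the core of a cAMP response element (TGACGT) at -66 to -61, and a TATA box (TATAAA) at -33 to -28. Jun held the TGACATCA form of an AP-1 site at -45 to -38, a CCAAT box at -65 to -61 and a GC box on the other strand at -89 to -84. Junb held a CCAAT box at -36 to -32 and TATAAA at 1 to 6. On the minus strand, RefSeq starts Junb at 84978748 and GENCODE at 84978718, so this TATAAA lies upstream of the GENCODE start. GENCODE starts Ier3 (35821684) and Fosl2 (32135801) upstream of RefSeq (35821713 and 32136472). Motif positions in Junb, Ier3 and Fosl2 therefore depend on the annotation. Ier3 held a GC box at -96 to -91. In these windows TGACGT was found only in Fos and TGACATCA only in Jun. Among all 32851 promoters in the table, TGACATCA was present in 3.62%, TGACGT in 7.51%, TATAAA in 13.6%, GGGCGG in 35.7% and CCAAT in 37.4%. The window of Fosl2 held a GC box at -75 to -70, and Ier3 also held CCAAT at -244 to -240 and at -175 to -171. An E-box (CACGTG, in 7.15% of all promoters), the AP-1 site TGAGTCA (5.2%) and a CArG box (1.63%) were in none of the windows of Fos, Fosl2, Jun, Junb, Jund and Ier3. Nor was the inverted repeat of AGGTCA with 1 base between the copies, the kind of element that Fxr and its partner bind, which 0.00913% of all promoters held. A match is a description of letters and not of a bound site. Bases more than 250 upstream were not searched, so a motif missing from a window may still lie there.

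The plot of levels by library shows all 10 genes. In KO cells under AC, 5 of the 10 were higher than in WT (Fos, Jun, Junb, Jund and Ier3), and 21.7% of all tested genes were called higher in that comparison. FAC raised Fosl1 and Egr1 in WT cells, while in KO cells it raised Fosl1 and Jund and lowered Jun. Calls are by edgeR's quasi-likelihood test with Benjamini-Hochberg adjustment over all tested genes, at an adjusted p under 0.05.

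**Figure D1:**
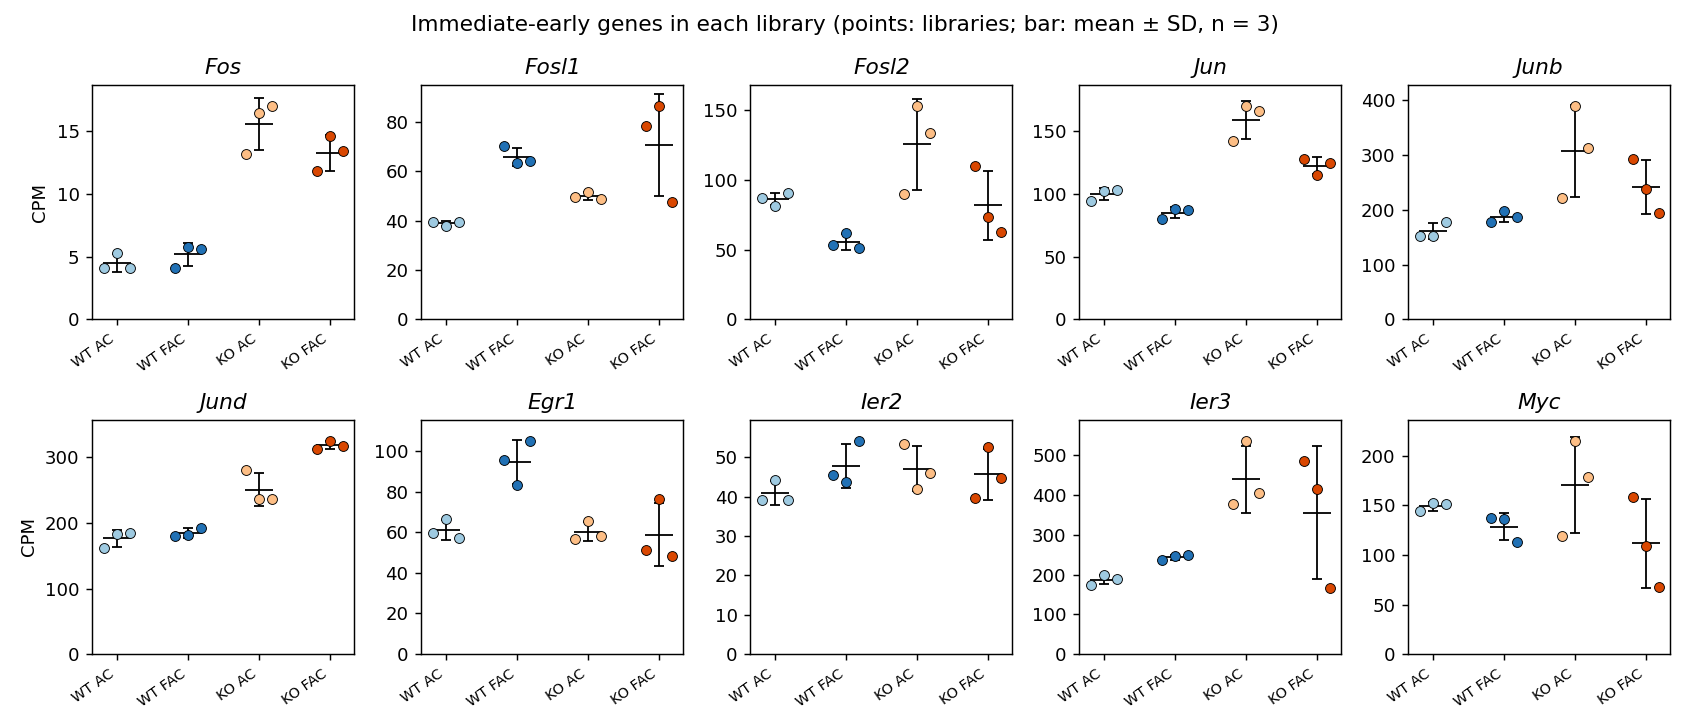
Each panel shows 1 gene, with CPM on the vertical axis from 0 and the 4 groups on the horizontal axis. Points are libraries and bars are the mean ± SD of 3. Fos lies between 4.09 and 5.8 CPM in the 6 WT libraries and between 11.8 and 17 in the 6 KO libraries, while Ier3 in KO FAC spreads from 166 to 485.

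Fos, on chromosome 12 (85473890 to 85477274, GRCm38.p6 as all positions here), encodes the classical partner of Jun. Its level was 4.09, 5.3 and 4.1 CPM in WT AC and 4.12, 5.8 and 5.62 in WT FAC. The KO libraries held 13.2, 16.5 and 17 CPM under AC and 11.8, 14.6 and 13.4 under FAC. Every KO library lay above every WT library. Fos was higher in KO than in WT by a log2 fold change of 1.79 ± 0.16 (SE) under AC (edgeR adjusted p = 1.61e-06) and 1.35 ± 0.16 under FAC (edgeR adjusted p = 1.59e-05). FAC itself gave log2 differences of 0.20 ± 0.17 in WT (edgeR adjusted p = 0.458) and -0.23 ± 0.15 in KO (edgeR adjusted p = 0.254).

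Fosl1, which encodes Fra-1, a Fos relative without the strong activation domain of Fos, lies on chromosome 19 (5447698 to 5455938). It read 39.6, 37.8 and 39.5 CPM in WT AC against 70.1, 63.5 and 64.1 in WT FAC. KO AC libraries held 49.4, 51.6 and 48.9 CPM, and KO FAC libraries 78.3, 86.3 and 47.4. The WT groups were well apart, whereas KO FAC 6 fell below all 3 KO AC libraries. The rise with FAC was 0.76 ± 0.16 in WT (edgeR adjusted p = 0.00688) and 0.50 ± 0.16 in KO (edgeR adjusted p = 0.0334). The KO call did not hold in most alternatives. Without KO FAC 5 the difference was 0.33 (edgeR adjusted p = 0.145), and in a fit of the KO groups alone the adjusted p was 0.12. In RefSeq Fosl1 overlaps Ccdc85b by 2776 bases. Ccdc85b read 10 to 17.6 CPM, and whether counting used strand is not given in the sources used here, so reads from the shared bases may have been split between both genes. GENCODE also places a gene on the opposite strand over parts of Jun (Junos), Junb (Prdx2) and Jund (Gm11175), whose reads cannot be told apart without strand.

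Fosl2 encodes Fra-2, the other Fra protein, and lies on chromosome 5 (32136472 to 32157840). In WT it read 87.3, 81.4 and 90.4 CPM under AC and 53.3, 62.3 and 51.3 under FAC. In KO it read 89.8, 153 and 134 under AC and 110, 73.3 and 62.5 under FAC. WT groups did not overlap, and KO groups did. The FAC differences were -0.63 ± 0.22 in WT (edgeR adjusted p = 0.0708) and -0.62 ± 0.22 in KO (edgeR adjusted p = 0.0526). Neither passed, and both passed with DESeq2 (adjusted p = 0.0118 and 0.00985). Under FAC the lowest KO library (62.5) lay just above the highest WT library (62.3), with a difference of 0.56 ± 0.22 (edgeR adjusted p = 0.0548).

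Per transcript length, the make-up of the Fos family, here Fos, Fosl1 and Fosl2, moved with FAC. Fosb, at group means of 0.563 to 2.22 CPM, was not part of this sum. Fosl1 supplied 58.8% ± 0.435 (SD, n = 3) of summed Fos-family TPM in WT AC and 77.3% ± 2.57 in WT FAC, and 52% ± 5.56 in KO AC and 67.5% ± 5.13 in KO FAC. Fosl2 supplied 35.7% and 17.9% in WT AC and WT FAC, and 35.1% and 21.8% in KO. Among these members Fos itself was the smallest share, at 5.46% in WT AC, 4.89% in WT FAC, 12.9% in KO AC and 10.7% in KO FAC. The FAC groups lay above the AC groups in the Fosl1 share within each genotype, with no overlap. These shares were not tested.

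**Figure D2:**
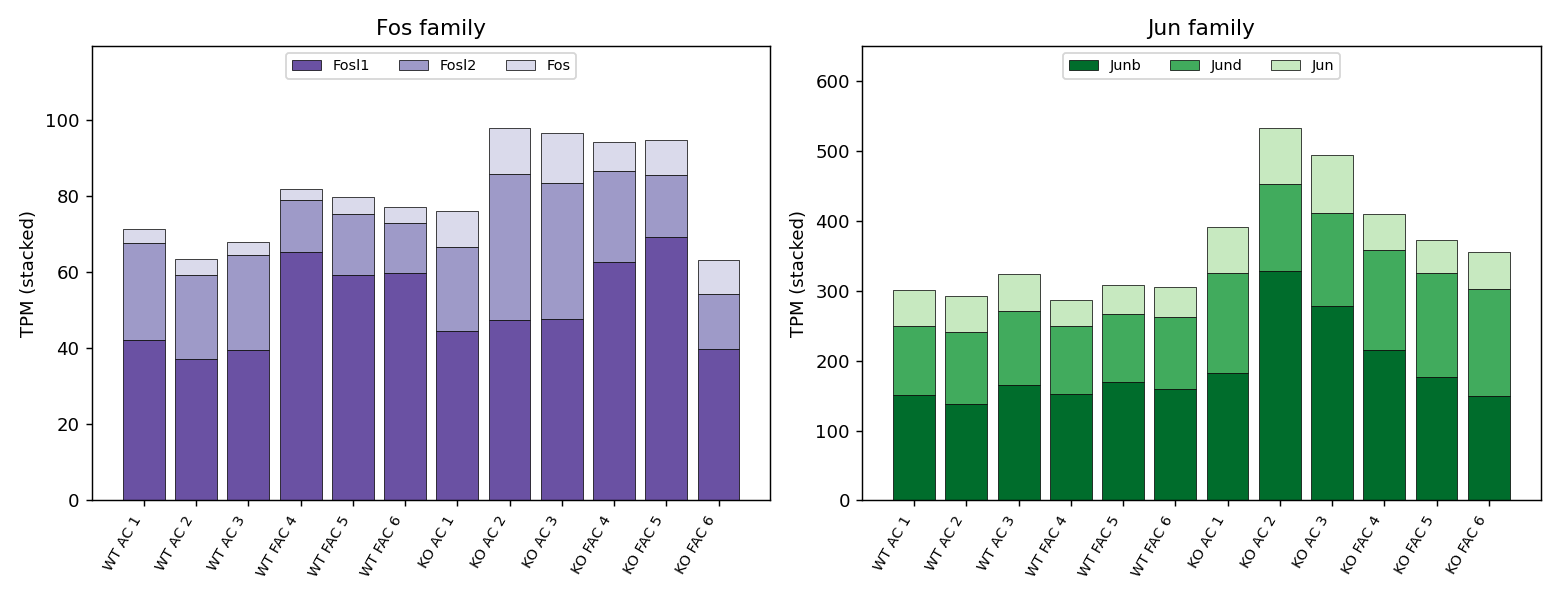
Stacked bars give TPM of the Fos family (Fos, Fosl1 and Fosl2, left) and Jun family (right) in each of the 12 libraries, from 0. Fosl1 makes up the largest block of the Fos family in every library, and Jun-family sums are 287 to 323 TPM in WT and 356 to 532 in KO.

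Jun, on chromosome 4 (95049036 to 95052222), encodes the AP-1 subunit that can pair with itself and that drives its own promoter. It read 94.4, 102 and 103 CPM in WT AC and 80.2, 88.1 and 87.1 in WT FAC. KO libraries held 142, 170 and 166 under AC and 128, 115 and 125 under FAC. Every KO library exceeded every WT library, and within each genotype every FAC library lay below every AC library. Jun was higher in KO by 0.68 ± 0.08 under AC (edgeR adjusted p = 1.49e-05) and 0.53 ± 0.08 under FAC (edgeR adjusted p = 9.77e-05). FAC lowered it in KO, by a log2 change of -0.38 ± 0.08 (edgeR adjusted p = 0.00278). In WT the change was -0.23 ± 0.08 (edgeR adjusted p = 0.0603), which passed with DESeq2 (adjusted p = 0.0496). The difference between genotypes, -0.15 ± 0.11 (edgeR adjusted p = 0.483), did not pass.

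Junb, which restrains Jun in some settings and activates in others, lies on chromosome 8 (84976909 to 84978748). WT libraries read 153, 152 and 178 CPM under AC and 178, 198 and 187 under FAC. KO libraries read 221, 389 and 312 under AC and 292, 238 and 195 under FAC. All 3 KO AC libraries were above all WT AC libraries, but KO FAC 6 lay within the WT FAC range. The KO excess was 0.93 ± 0.19 under AC (edgeR adjusted p = 0.00232) and 0.37 ± 0.19 under FAC (edgeR adjusted p = 0.125). Without KO FAC 6 the latter was 0.50 and passed (edgeR adjusted p = 0.0486).

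Jund, the AP-1 subunit that is high in resting cells, is also on chromosome 8 (70697739 to 70700616). It read 162, 183 and 184 CPM in WT AC and 180, 181 and 193 in WT FAC, against 280, 236 and 237 in KO AC and 313, 325 and 317 in KO FAC. KO libraries were again above all WT libraries, and KO FAC libraries above all KO AC libraries. The KO excess was 0.51 ± 0.08 under AC (edgeR adjusted p = 0.000144) and 0.79 ± 0.08 under FAC (edgeR adjusted p = 2.17e-06). FAC raised Jund in KO by 0.34 ± 0.08 (edgeR adjusted p = 0.00438) and gave 0.07 ± 0.08 in WT (edgeR adjusted p = 0.598). The KO rise was 0.16 on the log2(TPM + 1) scale in limma (adjusted p = 0.0629). The interaction was 0.28 ± 0.11 (edgeR adjusted p = 0.173).

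Egr1, a zinc finger factor that growth signals induce through ERK, lies on chromosome 18 (34861207 to 34864956). In WT it read 59.6, 66.8 and 57.1 CPM under AC and 95.8, 83.2 and 105 under FAC. In KO it read 56.9, 65.6 and 58.1 under AC and 51.5, 76.5 and 48.3 under FAC. All WT FAC libraries stood above the other 9. FAC raised Egr1 in WT by 0.63 ± 0.15 (edgeR adjusted p = 0.0125), while the KO change was -0.04 ± 0.15 (edgeR adjusted p = 0.875). Leaving out WT AC 3 gave an adjusted p of 0.054 in WT and leaving out WT FAC 6 gave 0.0524. Under FAC Egr1 was lower in KO than in WT, by a log2 change of -0.69 ± 0.15 (edgeR adjusted p = 0.00223), and under AC the difference was -0.02 ± 0.15 (edgeR adjusted p = 0.916). The difference of the FAC effects, KO minus WT, was -0.67 ± 0.21 (edgeR adjusted p = 0.11). It passed with DESeq2 (adjusted p = 0.0448) and, in edgeR without KO FAC 5, at -0.90 (adjusted p = 0.0153). These were the only 2 of 21 alternatives in which it passed. KO FAC 5 held the highest Egr1 level of its group, so leaving it out lowers the KO FAC mean by construction.

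Ier2, a nuclear protein of the immediate-early response, lies on chromosome 8 (84661331 to 84662852). It read 39.1, 44.3 and 39 CPM in WT AC, 45.4, 43.6 and 54.1 in WT FAC, 53.3, 42 and 46 in KO AC, and 39.6, 52.6 and 44.6 in KO FAC. All 4 groups overlapped, and no comparison passed.

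Ier3 encodes a small survival and stress protein, not a DNA-binding factor, and lies on chromosome 17 (35821713 to 35822911). Its libraries read 175, 198 and 188 CPM in WT AC and 237, 246 and 248 in WT FAC. In KO they read 378, 536 and 406 under AC and 485, 416 and 166 under FAC. KO AC libraries were above every WT library, and KO FAC 6 was below every WT FAC library. The KO excess was 1.23 ± 0.32 under AC (edgeR adjusted p = 0.013) and 0.55 ± 0.32 under FAC (edgeR adjusted p = 0.183). Without KO FAC 6 the second was 0.89 (edgeR adjusted p = 0.000105), and without WT AC 1 the first had an adjusted p of 0.0508. WT FAC lay above WT AC without overlap, at 0.38 ± 0.32 (edgeR adjusted p = 0.46).

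Myc, the growth regulator on chromosome 15 (61985341 to 61990361), read 144, 152 and 151 CPM in WT AC and 137, 136 and 113 in WT FAC. KO libraries read 119, 215 and 179 under AC and 158, 109 and 67.9 under FAC. The KO groups overlapped with each other and with WT. No comparison passed. FAC gave -0.61 ± 0.28 in KO (edgeR adjusted p = 0.131), and -0.94 (edgeR adjusted p = 0.0222) without KO FAC 4. That library held the highest Myc level of its group, so leaving it out deepens the fall by construction. The FAC change in KO passed in 4 of 15 alternatives, over which it ran from -1.14 to -0.35.

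**Figure D3:**
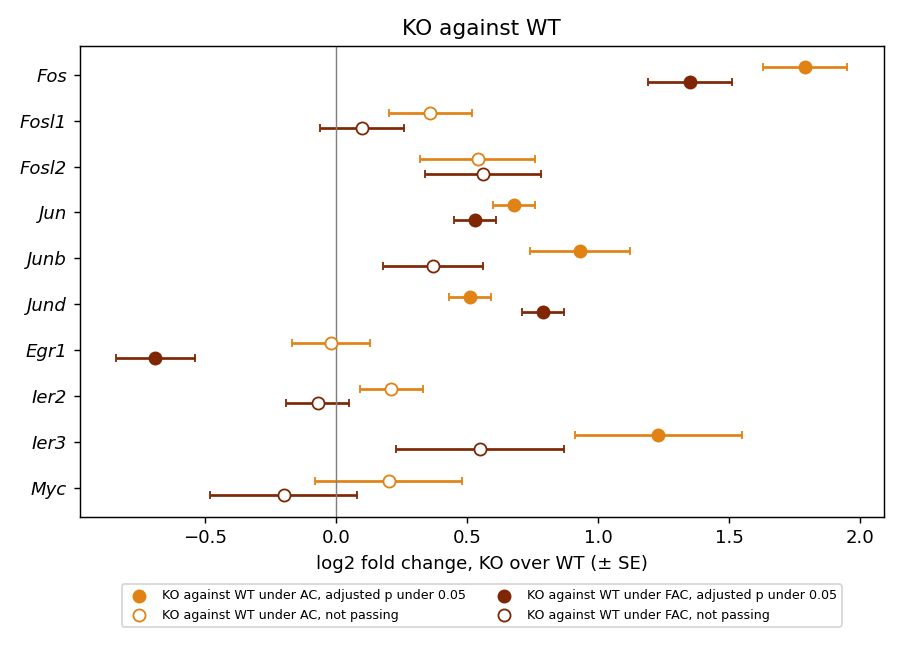
Log2 fold changes of KO over WT with SE bars, for the 10 genes under AC and under FAC. Filled points passed the test at an adjusted p under 0.05. Fos sits farthest right at 1.79 and 1.35, and Egr1 is the member called lower, at -0.69 under FAC.

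Over all 10 genes, KO against WT gave 5 higher and 0 lower under AC, beside 42.9% of all tested genes called in either direction and 21.2% called lower. Under FAC it gave 3 higher and 1 lower, beside 49.5% of genes called, 24.6% higher and 24.9% lower. FAC against AC gave 2 higher and 0 lower in WT, where 17.2% of genes were called, 8.7% higher and 8.55% lower. In KO it gave 2 higher and 1 lower, where 29.6% were called, 15% higher and 14.6% lower. Libraries of the compared groups did not overlap for 6 of the 10 genes between KO and WT under AC (53% of all tested genes), for 5 under FAC (59.1%), for 7 between FAC and AC in WT (43.2%) and for 2 in KO (38.8%). The median log2 change of the 10 genes was 0.53 for KO under AC and 0.45 for KO under FAC, beside -0.003 and -0.011 over all tested genes. For the difference of FAC effects edgeR called 0 members at an adjusted p under 0.05, beside 3.15% of all genes (1.87% higher and 1.28% lower). Of the members, 2 had an unadjusted p under 0.05, DESeq2 called 1 and limma 0.

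**Figure D4:**
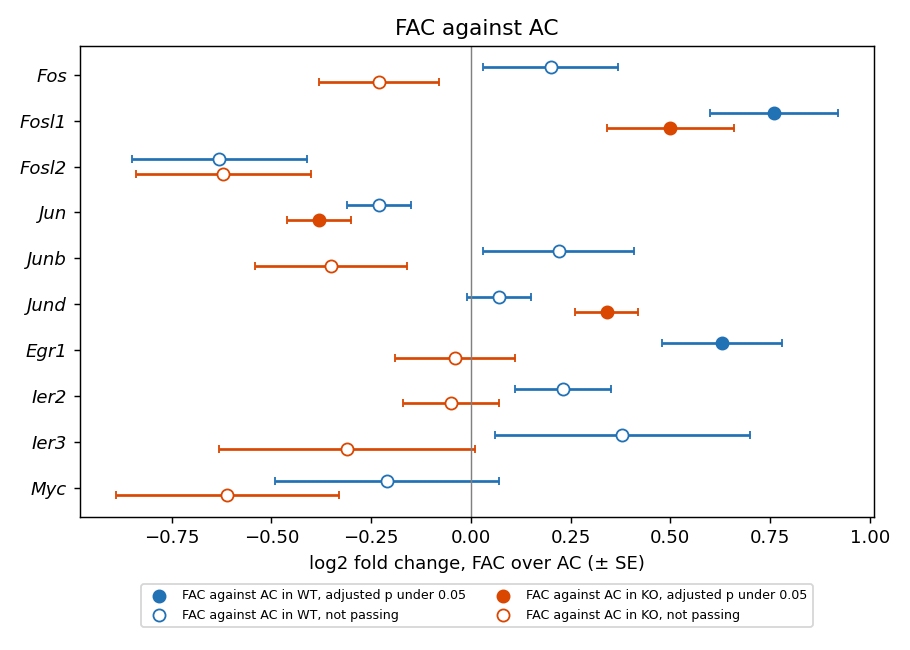
Log2 fold changes of FAC over AC with SE bars in WT and in KO. Filled points passed the test. Fosl1 passes in both genotypes (0.76 and 0.50), Egr1 only in WT (0.63) and Jun and Jund only in KO (-0.38 and 0.34), and the difference between genotypes passed for none of them.

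KO libraries of a group differed more from each other than WT libraries did for several members. The coefficient of variation of Ier3 was 47.1% in KO FAC against 2.44% in WT FAC, and that of Myc 40.4% against 10.8%. KO AC 1 had the lowest level of its group for 7 of the 10 genes, and KO FAC 6 for 6, namely Fosl1, Fosl2, Junb, Egr1, Ier3 and Myc. Along the third principal component (7.42% of the variance over all tested genes) KO AC 1 stood at 13.47 against -14.57 and -9.63 in its group, and KO FAC 4 and 6 stood at -22.69 and 27.69. The part of this spread in the results above was not tested beyond the values without those libraries. Without KO AC 1 and KO FAC 6, 8 of the 10 genes were called for KO against WT under either treatment, beside 44.3% of all tested genes under AC and 50.1% under FAC. These libraries were the lowest of their groups for most members, so leaving them out raises the KO means of those members by construction.

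**Figure D5:**
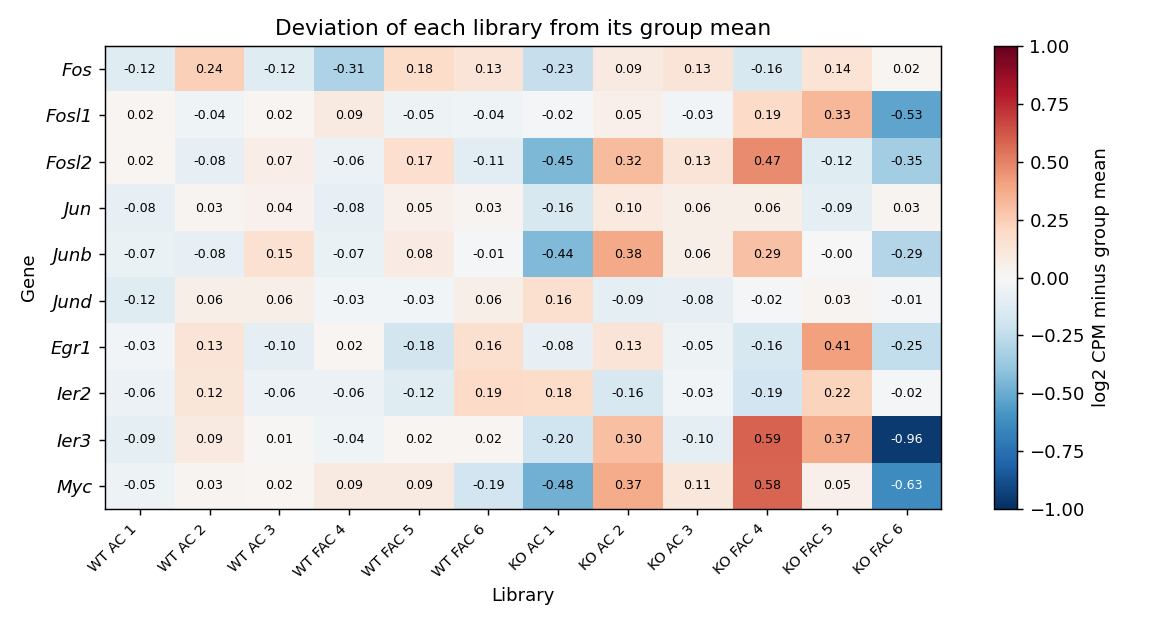
Each cell gives a library's log2 CPM minus its group mean, with 12 libraries across and 10 genes down. WT values lie between -0.31 and 0.24, and KO FAC 6 is lowest for Ier3 (-0.96) and Myc (-0.63).

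Per length, Ier3 was the most abundant member in all 4 groups, at 313 ± 6.69 TPM (SD, n = 3) in WT AC, 374 ± 9.97 in WT FAC, 672 ± 127 in KO AC and 472 ± 215 in KO FAC. Junb came second in each group (151, 161, 263 and 180 TPM), and Fos last (3.66, 3.87, 11.6 and 8.64 TPM). Ier3 and Junb did not overlap in any group, and Junb overlapped Jund in KO FAC. In WT AC the order below them was Myc, Jund, Jun, Ier2, Fosl1, Egr1 and Fosl2, and among neighbours only Myc and Jund overlapped. In WT FAC Fosl1, at 61.4 TPM, stood directly below Jund and Myc and above Ier2, Egr1 and Jun, and Ier2 overlapped Egr1 and Egr1 overlapped Jun. In KO AC the order was Jund, Myc, Jun, Ier2, Fosl1, Fosl2 and Egr1, with overlap between Jund and Myc, Myc and Jun, Ier2 and Fosl1, and Fosl2 and Egr1. In KO FAC it was Jund, Myc, Fosl1, Jun, Ier2, Egr1 and Fosl2, and the neighbours that stayed apart were Jund and Myc, Ier2 and Egr1, and Fosl2 and Fos.

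Some other genes had a course over the 12 libraries close to that of a member, measured as the mean absolute difference of log2 CPM after centring each gene, among 9646 genes. Nearest to Jun was C4b (0.0531), nearest to Jund were Map2k2 (0.0521) and Cox6a1 (0.0542), and nearest to Fos was F10 (0.168), a coagulation factor. Hgsnat (0.134) was nearest to Fosl1, Taf4b (0.12) to Egr1, Naa80 (0.103) to Junb and Stx11 (0.129) to Ier3.

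Other immediate-early genes, a list of 33 tested, gave 11 higher and 4 lower in KO under AC, with a median of 0.26, and 8 higher and 3 lower under FAC, with a median of 0.32. Among all tested genes 21.7% were called higher and 21.2% lower under AC, and 24.6% and 24.9% under FAC. Zfp36, which encodes an mRNA-destabilising protein, was higher by 1.50 ± 0.17 under AC (edgeR adjusted p = 2.7e-05), and Ptgs2, the inducible prostaglandin synthase, was lower by a log2 change of -1.87 ± 0.41 (edgeR adjusted p = 0.00272). The count of higher genes under AC was 6 on log2(TPM + 1) and 17 without KO AC 1 and KO FAC 4. Under FAC it was 2 on log2(TPM + 1) and 15 without KO AC 1 and KO FAC 6. FAC called 3 higher and 2 lower in WT, beside 8.7% and 8.55% of all tested genes. In KO it called 6 and 4, beside 15% and 14.6%. Among those called in KO, Fosb changed most, by 1.86 ± 0.29 (edgeR adjusted p = 0.000457), at a mean of 2.22 CPM or less in every group. Under FAC Fosb was also higher in KO than in WT, by 1.49 ± 0.27 (edgeR adjusted p = 0.000541). Plk3 rose in WT by 0.87 ± 0.14 (edgeR adjusted p = 0.000971), and Ccn2, a matricellular target of mechanical signals, fell in WT (-1.53, edgeR adjusted p = 0.00499) and in KO (-1.43, edgeR adjusted p = 0.00505).

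Feedback inhibitors of ERK gave 5 higher and 1 lower of 14 in KO under AC, beside 21.7% and 21.2% of all tested genes. Dusp8, a MAP kinase phosphatase, was higher by 0.80 ± 0.10 under AC (edgeR adjusted p = 2.98e-05) and 1.03 ± 0.10 under FAC (edgeR adjusted p = 2.4e-06), and Dusp10, another, by 0.91 ± 0.22 (edgeR adjusted p = 0.00659) and 1.18 ± 0.22 (edgeR adjusted p = 0.00127). Under FAC 4 were higher and 2 lower, beside 24.6% and 24.9% of all tested genes. With log2(TPM + 1), 2 were higher under AC. FAC lowered Errfi1, an inhibitor of EGF receptors, by log2 changes of -0.89 in WT (edgeR adjusted p = 0.000754) and -0.88 in KO (edgeR adjusted p = 0.000526).

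Upstream, growth factor receptors, ligands and MAP kinases gave 7 higher and 7 lower of 29 in KO under AC and 8 and 7 under FAC. For KO against WT, 42.9% of all tested genes were called under AC and 49.5% under FAC. Areg and Hbegf, ligands of the EGF receptor, were higher in KO under AC by 1.58 ± 0.24 (edgeR adjusted p = 0.000219) and 1.28 ± 0.22 (edgeR adjusted p = 0.0005). Ereg, another ligand of this receptor, was lower in KO, by log2 changes of -1.97 ± 0.59 under AC (edgeR adjusted p = 0.016) and -3.10 ± 0.73 under FAC (edgeR adjusted p = 0.00329), at a mean of 0.617 CPM or less in every group. Of 12 SRF, TCF and CREB activators, 5 were higher and 2 lower in KO under AC, beside 21.7% and 21.2% of all tested genes. Srf was higher by 0.59 ± 0.13 (edgeR adjusted p = 0.00383), and Elk3 lower by a log2 change of -1.41 ± 0.12 (edgeR adjusted p = 7.12e-07). FAC lowered Mrtfb, a coactivator of SRF, by log2 changes of -0.73 in WT (edgeR adjusted p = 0.000213) and -0.82 in KO (edgeR adjusted p = 5.84e-05). Cytoskeletal targets of SRF and MRTF were called lower by FAC in 6 of 13 in WT and 8 of 13 in KO, and higher in 0. The shares of all tested genes called lower by FAC were 8.55% in WT and 14.6% in KO.

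AP-1 partner factors gave 5 higher and 3 lower of 13 in KO under AC and 1 and 3 under FAC. The shares of all tested genes were 21.7% higher and 21.2% lower under AC, and 24.6% and 24.9% under FAC. Atf3, a stress-induced partner of Jun, was higher in KO under AC by 1.38 ± 0.29 (edgeR adjusted p = 0.00419). Nfe2l2, which encodes Nrf2, was lower under FAC in KO, by a log2 change of -0.83 ± 0.10 (edgeR adjusted p = 9.86e-05). It was also lower under FAC in WT, by -0.33 ± 0.10 (edgeR adjusted p = 0.0382), a call lost in 6 of 13 alternatives. The difference of its FAC effects between genotypes was not called. AP-1 linked targets gave 8 higher and 0 lower of 20 for FAC in KO, beside 15% and 14.6% of all tested genes. In WT they gave 2 and 1, beside 8.7% and 8.55%. Mt1, a metallothionein, rose in KO by 1.07 ± 0.13 (edgeR adjusted p = 0.00015). On log2(TPM + 1) the KO count was 4 higher, and without KO AC 1 and KO FAC 4 the count of lower genes in KO was 5 in place of 0. Hmga2 was lower in KO under AC by a log2 change of -2.05 ± 0.31 (edgeR adjusted p = 0.000426).

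Myc-linked ribosome and growth genes were called lower in KO in 14 of 24 under AC and 18 of 24 under FAC, with 0 and 2 higher and medians of -0.39 and -0.49. Among all tested genes 21.2% were called lower under AC and 24.9% under FAC. The nucleolar proteins Nop56 (-0.87, edgeR adjusted p = 4.5e-05) and Nop58 (-0.77, edgeR adjusted p = 9.47e-05) were among those lower under AC. Myc itself passed in neither genotype comparison.

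Markers of other cell types moved between these groups too. Stellate cell markers summed to 4.37 to 5.85 TPM in WT AC, 2.98 to 3.48 in WT FAC, 0.84 to 1.11 in KO AC and 0.79 to 0.95 in KO FAC, with 8 of 10 genes under 1 TPM in every library. Kupffer cell and macrophage markers summed to 553 to 615, 872 to 942, 737 to 937 and 874 to 987 TPM in the same order of groups, with 7 of 13 under 1 TPM in every library, Clec4f and Csf1r included. Of the 6 tested, 2 were called higher and 3 lower in KO under each treatment, with medians of -2.36 under AC and -2.30 under FAC. Under AC Adgre1 (-2.76, edgeR adjusted p = 2.21e-05), Marco (-2.75, edgeR adjusted p = 0.00022) and Lyz2 (-3.05, edgeR adjusted p = 0.000167) were lower in KO, against the direction of the sum. Sinusoidal endothelial markers summed to 21.4 to 23.4, 25.9 to 28.1, 20.5 to 22.6 and 16.8 to 20.1 TPM, with 4 of 12 under 1 TPM in every library. Of the 10 tested, 6 were called lower and 2 higher in KO under each treatment, with medians of -0.89 under AC and -1.66 under FAC, Cdh5 (-1.82 under AC, edgeR adjusted p = 1.2e-05) and Pecam1 (-1.52, edgeR adjusted p = 7.08e-05) among the lower. Cholangiocyte markers summed to 458 to 481 TPM in WT AC, 370 to 424 in WT FAC, 81.2 to 90.6 in KO AC and 114 to 139 in KO FAC. Of the 4 tested, 0 were called higher and 1 lower in KO under AC, with a median of 0.44. Under FAC 2 were higher and 1 lower, with a median of 0.70. The lower gene was Spp1 (-2.79 under AC, edgeR adjusted p = 8.39e-11, and -2.03 under FAC, edgeR adjusted p = 1.12e-09), against the direction of the medians. Krt19 (1.59, edgeR adjusted p = 8.68e-05) and Sox9 (0.97, edgeR adjusted p = 0.00144) were higher under FAC. Neutrophil and erythroid markers stayed at or under 2.85 TPM. Their part in the levels of the 10 genes was not tested.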

How the data were processed

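The members and gene lists (17 lists of 265 genes, 9 of them not found in the table) were chosen with earlier results of these data known. The authors deposited a table of estimated counts per gene, with FPKM and TPM values for the same libraries. RSEM, mm10 and GRCm38.p6 are named per the submitters' processing notes, with no versions. The aligner, annotation release and strand setting are not given in the sources used here. A total of 12 numeric columns, not mapped to a library, were not used. Columns were joined to libraries by name.

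Estimated counts were rounded (7.89% were not whole) and analysed in R 4.3.3 by edgeR 4.0.16, with TMM scaling, filterByExpr with a minimum count of 10 (12275 genes kept, 4453 removed) and a robust quasi-likelihood model with trended dispersion over the 4 groups. The biological coefficient of variation was 10.8%. The SE is the log2 fold change divided by the root of the F statistic. P-values were adjusted by Benjamini-Hochberg over all tested genes and called under 0.05. CPM are from the TMM-scaled counts. Library totals of 16464494 to 18335700 estimated reads set the depth. The scripts were tested on simulated data. Alternatives used DESeq2 1.42.0, limma 3.58.1 on log2(FPKM + 1), log2(FPKM + 0.1) and log2(TPM + 1), other scaling, no filter, a fit of the compared groups alone, left-out libraries and a replicate block.

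All 10 members are named in every comparison. From each other list, at most the 3 called genes of largest log2 fold change were eligible to be named, and not all are; for likeness, the 2 nearest genes with a mean CPM of at least 5. Positions, promoters and the bases shared by Fosl1 and Ccdc85b are from RefSeq GRCm38.p6. The overlaps with Junos, Prdx2 and Gm11175 and the alternative start sites are from GENCODE. RefSeq named 16629 of the 16728 genes. Figures were drawn with matplotlib 3.10.9.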

Additional observations from a re-analysis of the deposited data

Results flagged for a closer look

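Between genotypes, the effect of FAC differed for 10 of the 217 tested genes of the other lists (4.61%, beside 3.15% of all tested genes) by the test of the difference itself (KO minus WT, edgeR, adjusted p under 0.05), and for none of the 10 immediate-early members. Sgk1, an immediate-early kinase, differed by 1.52 ± 0.29 on the log2 scale (edgeR adjusted p = 0.0166), with -0.29 in WT and 1.23 in KO. The difference was 0.87 for Klf4 and 0.67 for Elk3, a partner of SRF; each of these 2 calls was lost in 14 of 21 alternatives. Mafk, a small Maf protein, differed by -0.66, with 0.26 in WT and -0.40 in KO. Vim, which encodes vimentin, differed by 0.82 and kept its call in all 21 alternatives, with -0.47 in WT and 0.35 in KO. Krt18, a keratin, differed by 0.44 and lost its call in 11 alternatives. Mycl, a relative of Myc, differed by -1.06, with -0.76 in WT and -1.81 in KO, and lost its call in 5 alternatives. Among the cell type markers, Cps1 differed by 1.18, Fgb by 0.91 (call lost in 7 alternatives) and Spp1 by 0.76. With the replicate block the adjusted p of Sgk1 and of Mafk was 0.0637 and that of Mycl 0.0839.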

How the results depend on the processing

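Of 810 alternative values for the 10 members, 738 kept direction and call, 56 gained a call, 15 lost one and 1 reversed. Fos, Jun, Junb and Jund stayed called for KO against WT under AC, and Fos, Jun, Jund and Egr1 under FAC, in every alternative run. The count of members called for FAC in WT was 2, and 4 with limma on log2(FPKM + 1), log2(FPKM + 0.1) and log2(TPM + 1) and with DESeq2, 7 in a fit of both WT groups alone, and 1 to 2 with a library left out. For FAC in KO it was 3, then 5 when KO AC 1 and KO FAC 4 were left out and 6 when KO AC 1 and KO FAC 6 were. For the difference of FAC effects it was 0, then 3 and 1 when those pairs of libraries were left out, 1 with DESeq2, and 0 to 1 with a library left out. Genotype counts were 5 under AC and 4 under FAC, and 8 for each without KO AC 1 and KO FAC 6; the FAC count was 4 to 8 with a library left out. The difference for Fosl2 reversed from 0.02 to -0.44 without KO AC 1 and KO FAC 4, and FAC in KO for Ldha went from 0.19 to -0.00 on log2(TPM + 1). The causes were not tested beyond the construction of each alternative. On log2(TPM + 1) the median of all genes shifted by -0.108 to -0.191 in the 4 group comparisons. Counts over all genes moved in the alternatives too. They are given here as ranges, so most member counts above are not set beside the share of all genes in the same setting. The count for the difference, 387, ran from 84 to 1918. For FAC in WT the all-gene count, 2117, ran from 1250 to 3345, and for FAC in KO, 3633, from 2199 to 4783. Genotype counts over all genes were 5265 under AC, with a range of 4162 to 5670, and 6071 under FAC, with 5245 to 6514. Same-numbered WT and KO libraries deviated from their group means with correlations from -0.142 to 0.208. With 3 libraries per group these values do not settle whether the numbers pair them. Pairing of AC with FAC libraries was not examined. The fit with the replicate block called 0 members for the difference, 5 under AC and 4 under FAC, and 84 genes in all for the difference. Depth limits Fos most, with 73 to 106 estimated reads in WT.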
